A study of Mus musculus with 11 samples.

Results

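The Reg genes encode small secreted lectins, proteins that bind sugars, and 5 of them were examined in the rectal mucosa of mice: Reg1, Reg3a, Reg3b, Reg3g and Reg4. A gene was taken where the platform annotation gave its symbol, and no other, to a transcript cluster, the set of probes that reads 1 gene. All 5 were found among the 19944 genes measured, each with 1 transcript cluster. They were taken by symbol and not by a cut on their values, but the family was chosen with earlier results of these data known. RNA of each of 11 mice, 10 weeks old and kept in conventional housing, was hybridised to 1 Affymetrix Mouse Gene 1.0 ST array. There were 4 α6ΔIEC-TAM mutant mice given tamoxifen, 4 α6ΔIEC-TAM mutant mice given NaCl in its place, and 3 wild-type control mice given tamoxifen. In α6ΔIEC-TAM mice tamoxifen is meant to delete Itga6, the gene of integrin α6, in intestinal epithelial cells, and the promoter that drives the recombinase is not given in the sources used here. Gavage, every other day over 5 days, began at 8 weeks of age, and tissue was taken 15 days after its start. The dose of tamoxifen was 10 mg per day. Each mutant group held 1 male among its 4 mice, and the control group held 2 males among its 3. Wild-type mice given NaCl were not analysed here, so that tamoxifen and the induced deletion cannot be told apart in the comparison of mutant tamoxifen with mutant NaCl. The comparison of mutant tamoxifen with control tamoxifen sets mutant against wild-type mice, so other effects of genotype and the induced deletion cannot be told apart there.

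The values are log2 RMA levels, so a difference of 1 is a doubling of signal. Array medians lay between 7.29 and 7.35, and arrays of a group correlated at 0.992 to 0.996. Itga6 itself went against its label: it read 11.75 to 11.93 in the arrays labelled mutant tamoxifen, against 11.28 to 11.49 in mutant NaCl and 11.15 to 11.52 in control tamoxifen. Where its probes sit relative to the deleted exons is unknown, so this reading does not check the labels. The group is therefore named by its label, and every direction below rests on that label. P-values cover only the variation among these mice, and the small number of arrays limits the precision. In whole mucosa fewer cells of a type and less RNA per cell cannot be told apart.

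Reg3g and Reg3b are made by intestinal epithelial cells, mostly in the small intestine of healthy mice. Reg3g kills Gram-positive bacteria by binding their peptidoglycan and helps to keep bacteria away from the epithelial surface, and Reg3b takes part in defence against Gram-negative bacteria. Their transcription is induced through microbe sensing by MyD88 and through the cytokine IL-22, which signals by STAT3. Reg4 marks the deep crypt secretory cells of the mouse colon, which lie beside the stem cells, and is also found in enteroendocrine cells. Reg1 is best known from the acinar cells of the pancreas.

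Except for Reg4, which is on chromosome 3, the members lie in 1 cluster on chromosome 6. In the RefSeq annotation of GRCm38.p6 its genes run in the order Reg3b, Reg3d, Reg3a, Reg2, Reg1 and Reg3g, with 1 pseudogene, Gm52853, between Reg1 and Reg3g. The promoters of the 2 members at its ends, Reg3b and Reg3g, are shown because both genes were higher in mutant tamoxifen mice, as described below, and that of Reg3a because it is a neighbour whose level did not pass the test. Each sequence runs from 250 bases before the annotated start to 50 bases after it, from RefSeq's GRCm38.p6, 5′ to 3′ on the gene's strand. Capitals mark runs of at least 8 bases identical to the promoter of Reg3g (for Reg3b and Reg3a) or of Reg3b (for Reg3g) in a global alignment.
Reg3b, chr6:78370635-78370934, plus strand: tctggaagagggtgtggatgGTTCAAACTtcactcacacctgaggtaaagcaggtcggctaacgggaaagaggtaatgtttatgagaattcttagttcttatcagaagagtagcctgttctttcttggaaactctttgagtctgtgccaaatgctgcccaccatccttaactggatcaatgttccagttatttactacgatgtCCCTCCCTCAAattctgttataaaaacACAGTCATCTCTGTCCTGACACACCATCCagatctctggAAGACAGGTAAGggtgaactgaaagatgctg
Reg3g, chr6:78468825-78469124, minus strand: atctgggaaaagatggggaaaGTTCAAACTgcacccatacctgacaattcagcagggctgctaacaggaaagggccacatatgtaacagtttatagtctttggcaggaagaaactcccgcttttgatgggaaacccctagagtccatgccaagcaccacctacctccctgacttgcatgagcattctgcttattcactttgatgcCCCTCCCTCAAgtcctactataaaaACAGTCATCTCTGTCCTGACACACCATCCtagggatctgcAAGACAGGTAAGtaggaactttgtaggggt
Reg3a, chr6:78380459-78380758, plus strand: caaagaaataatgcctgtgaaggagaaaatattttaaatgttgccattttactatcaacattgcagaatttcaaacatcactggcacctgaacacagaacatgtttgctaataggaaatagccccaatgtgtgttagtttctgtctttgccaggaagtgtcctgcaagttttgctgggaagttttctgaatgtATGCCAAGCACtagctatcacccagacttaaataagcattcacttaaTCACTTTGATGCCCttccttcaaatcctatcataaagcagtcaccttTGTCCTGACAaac

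The Reg3b and Reg3g promoters were the most alike of the 21 pairs among the 7 measured Reg genes, with 210 of 300 bases identical (70.0%) and a longest shared run of 29 bases around the annotated start. The next pairs, Reg1 with Reg2 and Reg3a with Reg3g, shared 184 bases each (61.3%), and the Reg3a with Reg3g pair had a longest run of 14. The motif TATAAA was searched on both strands, and 13.6% of the 32851 RefSeq promoters of this length hold it anywhere in the window. Just before the start it has its first base at position -29 in Reg3b, -27 in Reg3g and -30 in both Reg1 and Reg2, and it is not in the windows of Reg3a, Reg3d and Reg4. On the opposite strand the motif also occurs at -161 in Reg3g and 35 in Reg1. It is thus not particular to the genes that were higher. The motif TTCNNNGAA, the core of STAT binding sites, occurs once in Reg3b, at position -129, and once in Reg3d, at -238, and 8.3% of all promoters hold it. These letters are not in the windows of Reg3g, Reg3a, Reg1, Reg2 or Reg4. A match describes the sequence and does not show that a factor binds there.

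Apart from Reg4, the Reg genes gave low signal on the array, and this limits what their values can show. Averaged over all mice, Reg1 lay at the 13.7th percentile of the 19944 genes, Reg3a at 10.9, Reg3b at 14.0 and Reg3g at 18.5, while Reg4 lay at 98.1. The 1027 olfactory receptor genes measured, which the gut is not known to use, had a median of 4.93 with 5% to 95% of them between 4.37 and 6.26. All values of Reg1, Reg3a, Reg3b, Reg2 and Reg3d lay inside that span, as did those of Reg3g except in 3 mutant tamoxifen mice. Probes differ in brightness, so these positions are not amounts of RNA, and the values used here carry no detection call. The folds below are ratios of array signal, which for probes near background can understate the ratio of RNA. Whether the array read the transcripts of Reg1, Reg3a, Reg3b, Reg2 and Reg3d at all was not tested.

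Reg3g had the largest increase in signal of the family. Its values were 6.98, 7.55, 7.12 and 5.70 on the log2 scale for mice labelled mutant tamoxifen, against 5.62, 5.17, 5.21 and 4.95 in mutant NaCl and 5.03, 5.14 and 5.29 in control tamoxifen. All 4 mutant tamoxifen mice lay above all 7 others, 3 of them by more than 1 unit, while replicate 4 lay just above the highest mutant NaCl mouse. The group means were 6.84 ± 0.796 (SD, n = 4) in mutant tamoxifen, 5.24 ± 0.279 (SD, n = 4) in mutant NaCl and 5.15 ± 0.132 (SD, n = 3) in control tamoxifen. Against control tamoxifen the signal of Reg3g was 3.22-fold higher (limma, log2 difference 1.69, SE 0.369, 95% confidence interval 0.87 to 2.50, adjusted p = 0.00829). Against mutant NaCl the signal was 3.04-fold higher (limma, log2 difference 1.60, SE 0.321, interval 0.89 to 2.31, adjusted p = 0.0052). The levels in both of these groups lay inside the olfactory receptor span, so neither fold is a measured ratio of RNA. Mutant NaCl and control tamoxifen differed by 0.08 (limma, interval -0.73 to 0.90, adjusted p = 0.971), an interval that allows up to 1.87-fold more or a fall to 0.602 of the control level. Against control tamoxifen the call was lost without mutant tamoxifen replicate 3 (1.46, adjusted p = 0.0652), without control tamoxifen replicate 2 (1.67, adjusted p = 0.051) and in female arrays alone, where control tamoxifen is 1 mouse (1.60, adjusted p = 0.14). In female arrays alone the call against mutant NaCl was lost too (1.41, adjusted p = 0.0534).

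**Figure D1:**
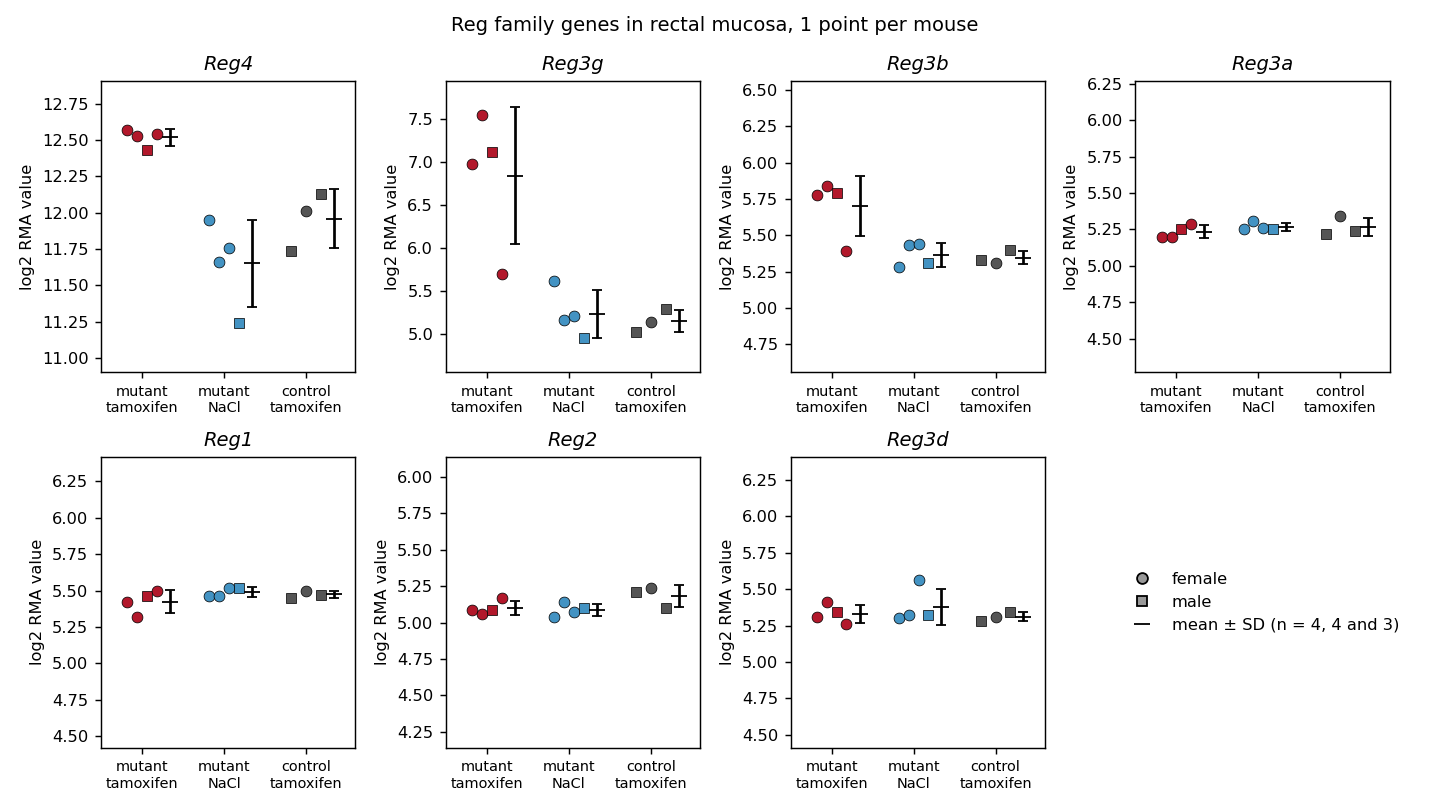
Log2 RMA values (vertical axes, each panel with its own range) of the 5 Reg members and of Reg2 and Reg3d, with 1 point per mouse, squares for males and circles for females, and bars for the mean ± SD of mutant tamoxifen (n = 4), mutant NaCl (n = 4) and control tamoxifen (n = 3). Reg4 and Reg3g lie higher in all 4 mutant tamoxifen mice than in all 7 others, Reg3b does so in 3 of 4, and the other genes overlap between groups.

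Reg3b was higher in the same comparisons as Reg3g, by small differences in signal that lay inside the olfactory receptor span in every mouse. It read 5.78, 5.84, 5.79 and 5.39 in the arrays labelled mutant tamoxifen, against 5.28, 5.43, 5.44 and 5.31 in mutant NaCl and 5.33, 5.31 and 5.40 in control tamoxifen. The same 3 mutant tamoxifen mice stood above all others, and replicate 4, at 5.39, lay inside the range of the 7 others (5.28 to 5.44), so the groups overlap. Reg3b averaged 5.70 ± 0.208 in mutant tamoxifen (SD, n = 4), 5.36 ± 0.0813 in mutant NaCl (SD, n = 4) and 5.35 ± 0.0481 in control tamoxifen (SD, n = 3). Its signal was 1.29-fold higher than in control tamoxifen (limma, log2 difference 0.37, SE 0.101, interval 0.14 to 0.59, adjusted p = 0.0237) and 1.26-fold higher than in mutant NaCl (limma, log2 difference 0.34, SE 0.0881, interval 0.14 to 0.53, adjusted p = 0.019). Between mutant NaCl and control tamoxifen the difference was 0.03 (limma, interval -0.19 to 0.25, adjusted p = 0.957). The call against control tamoxifen was lost without mutant tamoxifen replicate 3 (adjusted p = 0.131), control tamoxifen replicate 1 (0.0604) or control tamoxifen replicate 2 (0.116), and in female arrays alone (0.219). Against mutant NaCl it was lost without any 1 of mutant tamoxifen replicates 1, 2 and 3 or mutant NaCl replicates 1 and 4 (adjusted p = 0.0513 to 0.0724), and in female arrays alone (0.129).

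Without mutant tamoxifen replicate 4 the difference from control tamoxifen was 2.00 for Reg3g (limma, adjusted p = 0.000135) and 0.45 for Reg3b (adjusted p = 0.000756), so this mouse lowered both. It was no lower than its group in Reg4. After each group's mean was subtracted, the values of Reg3b and Reg3g correlated at r = 0.82 over the 11 arrays, and those of Reg3g and Reg4 at r = 0.28. Among the 21 pairs of Reg genes, Reg1 with Reg3g (r = -0.76), Reg3a with Reg2 (r = 0.73) and Reg3g with Reg2 (r = -0.67) came next in size, although Reg1, Reg3a and Reg2 gave no call. These values share their arrays and normalisation, and mutant tamoxifen replicate 4 deviated most in both Reg3b (-0.31) and Reg3g (-1.14). Probe sequences were not used here, and whether probes of Reg3b also bind Reg3g transcripts was not tested.

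**Figure D2:**
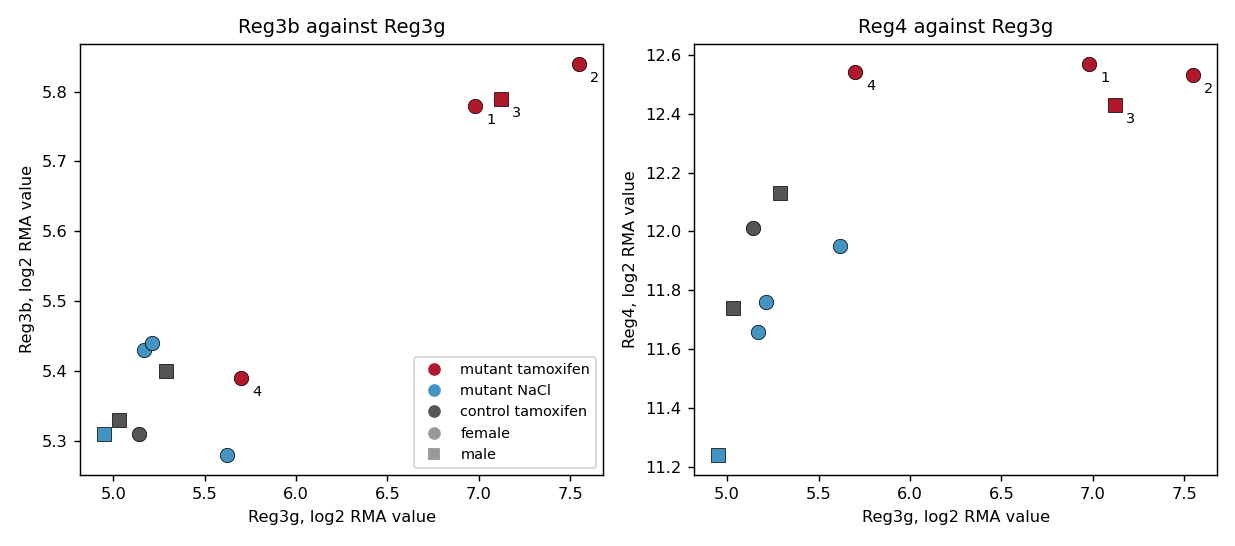
Log2 RMA values of Reg3b (left) and Reg4 (right) against Reg3g in each of the 11 mice, coloured by group, with squares for males and circles for females, and with the replicate number beside mutant tamoxifen mice. Mutant tamoxifen replicates 1 to 3 are high in Reg3g and Reg3b, replicate 4 lies near the other groups in both at 5.70 and 5.39, and all 4 are high in Reg4 at 12.43 to 12.57.

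Reg4 differed from the other members in that its signal was high in every mouse. It read 12.57, 12.53, 12.43 and 12.54 in the arrays labelled mutant tamoxifen, against 11.95, 11.66, 11.76 and 11.24 in mutant NaCl and 11.74, 12.01 and 12.13 in control tamoxifen. The 4 mutant tamoxifen mice lay close together and above all 7 others, of which the male mutant NaCl mouse was lowest. The means were 12.52 ± 0.0615 (SD, n = 4) in mutant tamoxifen, 11.65 ± 0.299 (SD, n = 4) in mutant NaCl and 11.96 ± 0.198 (SD, n = 3) in control tamoxifen. Reg4 was 1.82-fold higher than in mutant NaCl (limma, log2 difference 0.86, SE 0.106, interval 0.63 to 1.10, adjusted p = 0.000393), and this call held in every setting tried. It was 1.36-fold higher than in control tamoxifen (limma, log2 difference 0.45, SE 0.122, interval 0.18 to 0.72, adjusted p = 0.0221). The call against control tamoxifen was lost without mutant tamoxifen replicate 3 (0.37, adjusted p = 0.135), control tamoxifen replicate 1 (0.39, adjusted p = 0.0648) or control tamoxifen replicate 2 (0.33, adjusted p = 0.184).

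Reg4 was also compared between the groups that did not have an induced deletion. These groups differ in both genotype and drug, and the 2 cannot be told apart here. Mutant NaCl mice read 0.42 lower than control tamoxifen mice (limma, SE 0.122, interval -0.69 to -0.15), a difference with an unadjusted p of 0.00595 that did not pass over all genes (limma, adjusted p = 0.522). The difference was -0.24 without mutant NaCl replicate 4, the male of that group, -0.23 in female arrays alone, and -0.31 without a sex term, which is the difference of the plain means. The mean of Reg4 was highest in mutant tamoxifen, then in control tamoxifen, then in mutant NaCl, and the last 2 groups overlapped, with 11.24 to 11.95 in mutant NaCl and 11.74 to 12.13 in control tamoxifen.

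Reg1 and Reg3a did not pass the test in any comparison. Reg1 read 5.32 to 5.50 in the arrays labelled mutant tamoxifen, against 5.46 to 5.52 in mutant NaCl and 5.45 to 5.50 in control tamoxifen. Reg3a read 5.20 to 5.29 in mutant tamoxifen, against 5.25 to 5.31 in mutant NaCl and 5.22 to 5.34 in control tamoxifen. Their differences in mutant tamoxifen were -0.04 and -0.05 against control tamoxifen (limma, intervals -0.14 to 0.07 and -0.14 to 0.04, adjusted p = 0.595 and 0.412). Against mutant NaCl they were -0.06 and -0.04 (limma, intervals -0.15 to 0.03 and -0.11 to 0.04, adjusted p = 0.329 and 0.528). The intervals bound any increase of Reg1 at 1.05-fold and of Reg3a at 1.03-fold of signal in these comparisons.

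The other genes of the chromosome 6 cluster did not pass either. Reg2, a close relative of Reg1, read 5.06 to 5.17 in the arrays labelled mutant tamoxifen, against 5.04 to 5.14 in mutant NaCl and 5.10 to 5.24 in control tamoxifen, and Reg3d read 5.26 to 5.41, against 5.30 to 5.56 and 5.28 to 5.34 in the same order of groups. In mutant tamoxifen against control tamoxifen, Reg2 differed by -0.09 (limma, adjusted p = 0.158) and Reg3d by 0.01 (adjusted p = 0.933). Along the cluster Reg3b and Reg3g at its ends passed the test, and the 4 genes between them did not, with all 4 at signal inside the olfactory receptor span. Extl3, a glycosyltransferase of heparan sulphate synthesis described as a receptor of Reg proteins, read 9.84 to 10.06 in mutant tamoxifen, 9.95 to 10.23 in mutant NaCl and 9.89 to 10.13 in control tamoxifen, with a difference of -0.01 from control (limma, adjusted p = 0.973).

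Counted over the family, 3 of 5 members were higher in mutant tamoxifen than in control tamoxifen and 0 were lower, where 12.9% of all genes were higher and 24.6% passed in either direction. Against mutant NaCl the same 3 were higher and 0 lower, with 12.5% of all genes higher and 23.2% called in either direction. Groups without overlap were seen for Reg3g and Reg4 in both comparisons, where 17.3% of all genes lay wholly above control tamoxifen and 14.2% wholly above mutant NaCl. None of the members lay wholly below, as 20.1% of all genes did against control tamoxifen and 12.6% against mutant NaCl. The median difference of the 5 members was 0.37 against control tamoxifen and 0.34 against mutant NaCl, where that of all genes was -0.02 and -0.01. Both comparisons use the same mutant tamoxifen arrays and are not independent. In mutant NaCl against control tamoxifen 0 members passed, as did 0 of all genes (limma, 0% called), while 8.15% of genes had an unadjusted p under 0.05. All 5 members overlapped between these groups, while 2.82% of all genes lay wholly above and 5.32% wholly below.

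**Figure D3:**
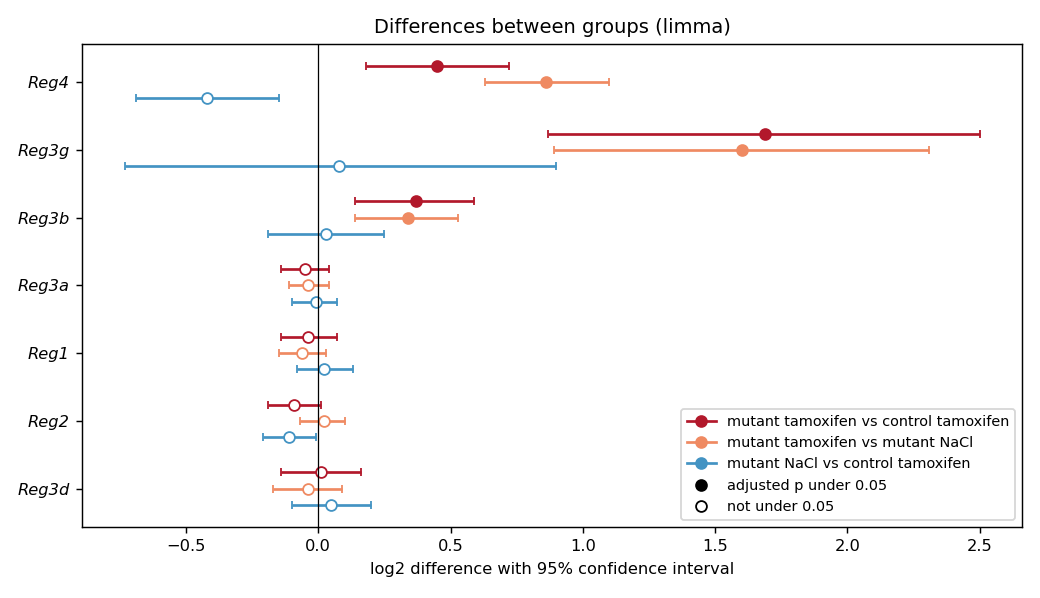
Log2 differences with 95% confidence intervals (horizontal axis) for 7 Reg genes in the 3 comparisons, with filled points for an adjusted p under 0.05. Reg3g differs most, at 1.69 and 1.60, with the widest intervals, Reg4 differs by 0.45 and 0.86, Reg3b by 0.37 and 0.34, and no point of the mutant NaCl against control tamoxifen comparison is filled.

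Genes whose deviations from the group means were most like a member's over the 11 arrays often differed from it between groups. For Reg3g these were Tbl1xr1, Bcl2l14, Ctss and Golph3l (r = 0.94 to 0.96), of which Ctss, the lysosomal protease cathepsin S, was lower in mutant tamoxifen than in control tamoxifen (limma, log2 difference -0.56, adjusted p = 0.000607). For Reg3b they were Agpat4, Smpdl3a, Clmn and Zfp507 (r = 0.94 to 0.99), and for Reg4 Htr2c, Ttpal, Prf1 and Smarca5 (r = 0.93 to 0.94). Smarca5, a chromatin remodelling ATPase, went the same way as Reg4. It was higher in mutant tamoxifen than in control tamoxifen (limma, log2 difference 0.37, adjusted p = 0.00548). Reg1 was most like Oas1h, Tnfaip6, Ccdc120 and Stc1 (r = 0.94 to 0.98), and Reg3a most like Papss1, Ankk1, Skint2 and Evx1 (r = 0.90 to 0.94). With 11 arrays and 19944 genes such values are a description of these arrays. For Reg3g and Reg3b they depend most on mutant tamoxifen replicate 4, which deviated most from its group's mean in both (-1.14 and -0.31).

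Signalling by IL-22 and STAT3 is 1 of the routes known to induce Reg3b and Reg3g. Genes that IL-22 and STAT3 are known to induce in epithelium were mostly higher in the arrays labelled mutant tamoxifen. Of 20 measured, 15 rose and 0 fell against control tamoxifen (median log2 difference 0.75), and 14 rose and 1 fell against mutant NaCl (median 0.81), beside the 12.9% and 12.5% of all genes that rose. This list, like the others below, was chosen with earlier results of these data known, so its counts describe these arrays and are not a test. S100a8 and S100a9 are on it and are also neutrophil markers. Lrg1, a secreted glycoprotein, rose by 2.67 (limma, SE 0.132, adjusted p = 2.72e-06) against control tamoxifen, and Saa3, a serum amyloid A, by 2.32 (SE 0.165, adjusted p = 2.17e-05). Fut2, which fucosylates epithelial glycans, rose by 0.91 (limma, adjusted p = 0.00129), and Socs3, the feedback inhibitor of STAT3 signalling, by 1.01 (adjusted p = 0.00227). Averaged over its genes, the list read 9.74, 9.64, 9.77 and 9.31 in the 4 mutant tamoxifen mice, 8.45 to 8.62 in mutant NaCl and 8.35 to 8.89 in control tamoxifen. Its lowest mutant tamoxifen value was that of replicate 4, the mouse low in Reg3g and Reg3b, and it still lay above all other groups. A lowest value in replicate 4 was not particular to this list. That mouse was also lowest of its group for markers of goblet cells (11.59) and deep crypt secretory cells (9.62). The same held for markers of T cells and innate lymphoid cells (7.08) and of B and plasma cells (10.03). For neutrophil markers (8.11) and smooth muscle markers (11.68) it was highest. Whether IL-22 and STAT3 signalling bears on the Reg3b and Reg3g differences was not tested.

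Cytokines, receptors and signalling genes of the pathway were counted as well. Of 24 measured genes of the IL-22, IL-17, IL-6 and STAT3 pathways, 6 rose and 2 fell against control tamoxifen (median -0.01), and 5 rose and 2 fell against mutant NaCl (median 0.02). Over all genes 12.9% rose and 11.8% fell against control tamoxifen, and 12.5% rose and 10.7% fell against mutant NaCl, and these shares are the background of every list count that follows. Besides Socs3, Osmr, the oncostatin M receptor, rose by 0.55 (limma, adjusted p = 0.00393) and Jak2 by 0.29 (adjusted p = 0.0182), while Il10rb, a chain of the IL-22 receptor, fell by 0.25 (adjusted p = 0.00993), all against control tamoxifen. Il22 itself was not analysed here. Of 19 microbe sensing genes 7 rose and 1 fell against control tamoxifen (median 0.14), beside 12.9% and 11.8% of all genes, and 6 rose and 1 fell against mutant NaCl (median 0.01), beside 12.5% and 10.7%. Cd14, which presents lipopolysaccharide to TLR4, rose by 0.82 (limma, adjusted p = 0.000541), Tlr4 by 0.37 (adjusted p = 0.00201) and the adaptor Myd88 by 0.34 (adjusted p = 0.0117), and the kinase gene Irak2 fell by 0.62 (adjusted p = 0.000607), against control tamoxifen.

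Among 30 other secreted antimicrobial proteins, 11 rose and 3 fell against control tamoxifen (median 0.19), beside 12.9% and 11.8% of all genes. Against mutant NaCl 12 rose and 4 fell (median 0.33), beside 12.5% and 10.7%. Pla2g2a, a secreted phospholipase that attacks Gram-positive bacteria, rose by 2.84 (limma, SE 0.233, adjusted p = 6.29e-05), Ltf, the iron-binding lactoferrin, by 2.31 (SE 0.467, adjusted p = 0.00581), Slpi, a protease inhibitor, by 1.65 (SE 0.269, adjusted p = 0.00197) and Lcn2, the siderophore-binding lipocalin 2, by 1.18 (SE 0.234, adjusted p = 0.00512), against control tamoxifen. Against mutant NaCl, Retnlb, the goblet cell protein RELMβ, rose by 5.26 (limma, SE 0.721, adjusted p = 0.000746). It averaged 10.74 in mutant tamoxifen, 5.48 in mutant NaCl and 7.76 in control tamoxifen, so its mean lay less far above control tamoxifen. The lists of induced and of antimicrobial genes share members, among them Lcn2, Retnlb, S100a8 and S100a9. Of these, S100a8 and S100a9 are also on the neutrophil list, as are Ltf and Camp of the antimicrobial list, so the counts of these lists are not separate.

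**Figure D4:**
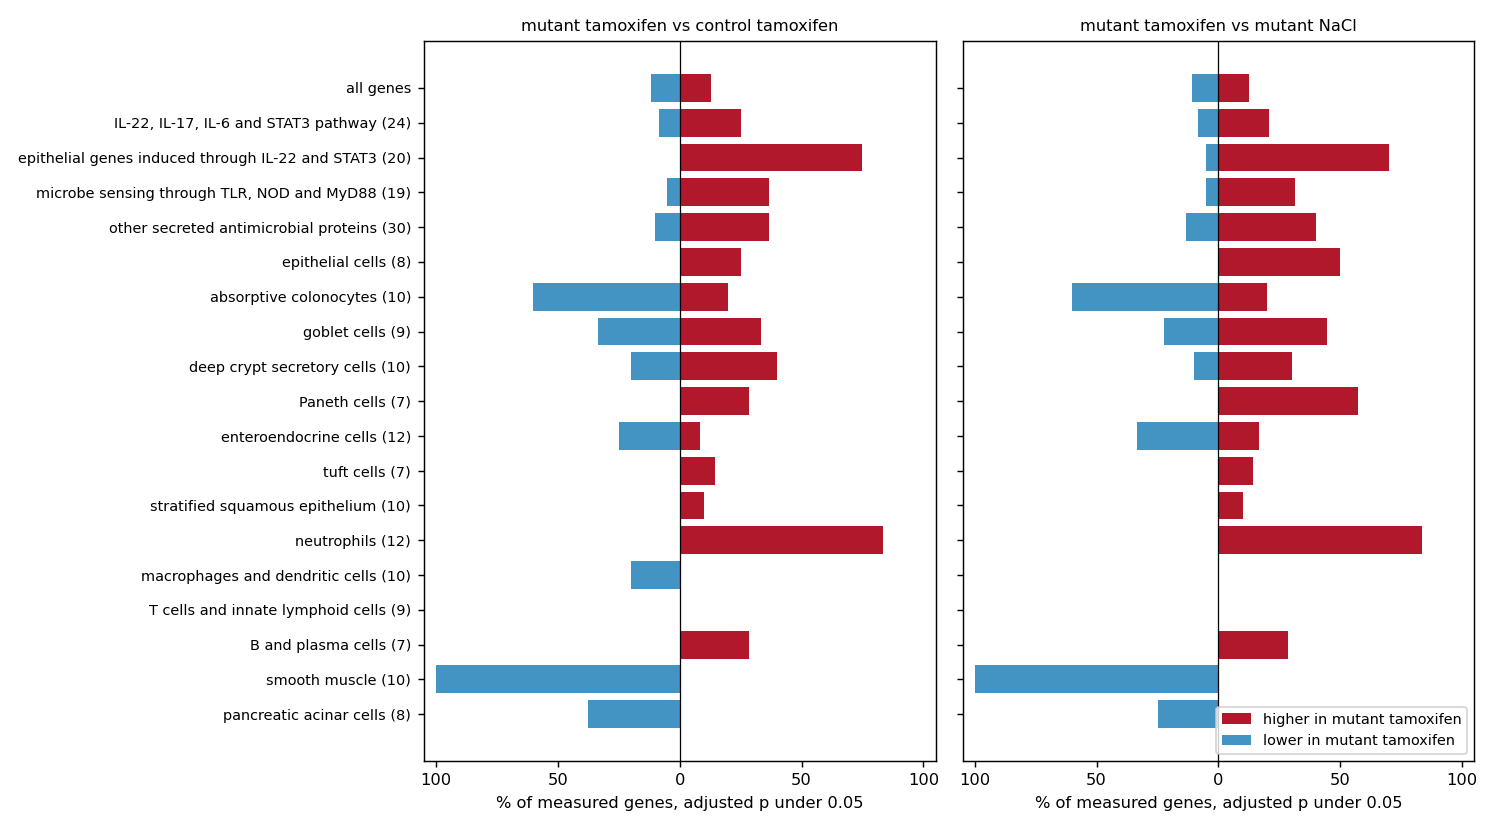
Share of the measured genes of each list (number in brackets) with an adjusted p under 0.05, to the right of 0 where higher in mutant tamoxifen and to the left where lower, against control tamoxifen (left panel) and mutant NaCl (right panel), with all 19944 genes at the top. Genes induced through IL-22 and STAT3 (15 of 20 higher) and neutrophil markers (10 of 12 higher) stand above the 12.9% of all genes in the left panel, and all 10 smooth muscle markers are lower in both.

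Markers of cells that make Reg proteins, and of other cells in the mucosa, were read in the same arrays, and some lists overlapped between groups. Deep crypt secretory cell markers averaged 9.62 to 10.07 in the arrays labelled mutant tamoxifen, 9.33 to 9.54 in mutant NaCl and 9.67 to 9.69 in control tamoxifen. Of those 10 markers 4 rose and 2 fell against control tamoxifen, and 3 rose and 1 fell against mutant NaCl, where 24.6% and 23.2% of all genes passed in either direction. Their median log2 difference was -0.02 against control tamoxifen, as for all genes, and 0.19 against mutant NaCl, where that of all genes was -0.01. The secretory peptide gene Spink4, also on the goblet cell list, rose by 0.69 against control tamoxifen (limma, adjusted p = 0.00106). Goblet cell markers averaged 11.59 to 12.07 in mutant tamoxifen, 11.69 to 11.94 in mutant NaCl and 11.83 to 12.03 in control tamoxifen, with 3 of 9 higher and 3 lower against control tamoxifen. Enteroendocrine markers averaged 8.71 to 8.92, 8.83 to 9.04 and 8.92 to 9.13 in the same order of groups, and 1 of 12 rose and 3 fell against control tamoxifen. The granule protein gene Chga fell by 0.40 there (limma, adjusted p = 0.0111). Whether the makeup of secretory cells bears on the Reg4 difference was not tested.

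Paneth cell markers averaged 8.04 to 9.08 in mutant tamoxifen, 7.12 to 7.27 in mutant NaCl and 7.31 to 7.74 in control tamoxifen, where Pla2g2a and Mmp7 were the 2 of 7 that rose against control tamoxifen. Of 8 markers of pancreatic acinar cells, the main known source of Reg1, 0 rose and 3 fell against control tamoxifen, where 11.8% of all genes fell. Neutrophil markers averaged 7.96, 7.59, 7.71 and 8.11 in the mutant tamoxifen mice, 6.82 to 7.0 in mutant NaCl and 6.78 to 7.07 in control tamoxifen, with 10 of 12 higher and 0 lower against either group. Replicate 4, low in Reg3g and Reg3b, had the highest neutrophil value of its group, and also the highest smooth muscle value (11.68). Epithelial markers averaged 12.21 to 12.41 in mutant tamoxifen, 12.07 to 12.14 in mutant NaCl and 12.10 to 12.18 in control tamoxifen, and smooth muscle markers 11.53 to 11.68, 11.97 to 12.26 and 12.13 to 12.23 in the same order. Markers of absorptive colonocytes averaged 10.28 to 10.58, 10.98 to 11.16 and 11.17 to 11.54, with 2 of 10 higher and 6 lower against control tamoxifen. Of the remaining lists against control tamoxifen, 1 of 7 tuft cell markers and 2 of 7 B and plasma cell markers rose, 2 of 10 macrophage and dendritic cell markers fell, and 0 of 9 markers of T cells and innate lymphoid cells passed. These counts stand beside 12.9% of all genes that rose and 11.8% that fell. Markers of stratified squamous epithelium, which lines the anal end of the rectum, varied widely within groups, at 8.43 to 9.78 in mutant tamoxifen, 8.44 to 9.49 in mutant NaCl and 6.96 to 9.56 in control tamoxifen. The part of these cell types in the Reg differences was not tested.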

How the data were processed

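The authors deposited log2 values, 1 per transcript cluster and array, made with RMA in Affymetrix Expression Console per the labels (version 1.1 after Command Console version 2.0, per the series design text). The submitters' processing notes also name Partek. A genome build is not given in the sources used here. Of 35556 transcript clusters 21797 had 1 gene symbol in the platform annotation, and the cluster with the highest mean was kept per gene, giving 19944 genes. Symbols were matched to RefSeq's GRCm38.p6 gene table (21774 as given, 2 updated, 21 without a match and kept).

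Groups came from the genotype and treatment labels, and replicate numbers only name arrays. All 11 arrays were fitted per gene with limma version 3.58.1 (R version 4.3.3), with a sex term and a variance trend. P-values were two-sided, adjusted by the Benjamini-Hochberg method across the 19944 genes, and called at 0.05. The steps were tested on simulated data. Promoters were aligned with Biopython version 1.88 (match 1, mismatch -1, gap opening -3, gap extension -0.5). The members, the 19 lists (208 genes measured, 16 on more than 1 list) and the tests were chosen with earlier results of these data known, and motifs and alignments after the values were seen. Named genes were the family, Extl3, at most 4 genes per pathway list and comparison and 2 per cell type list by smallest p, and the 4 genes most like each member. Alternatives were other sex terms, arrays, filters, normalisations, moderations, array weights and cluster choices, and leaving out each array.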

Additional observations from a re-analysis of the deposited data

Results flagged for a closer look

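Dixon's test, which flags about 1 group in 20 by chance, was run on the mutant tamoxifen and mutant NaCl groups for 9 genes. It set 2 values apart from the other 3 of their group. Reg3b in mutant tamoxifen replicate 4 read 5.39, against 5.78 to 5.84 in the rest of its group. Reg3d in mutant NaCl replicate 3 read 5.56, against 5.30 to 5.32.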

How the results depend on the processing

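With 12 alternatives and each of 11 arrays left out, differences of Reg3b, Reg3g and Reg4 between mutant tamoxifen and either other group kept their sign. In female arrays alone, where control tamoxifen is 1 mouse assumed to vary like the others, Reg3b (0.36) and Reg3g (1.60) lost their calls against control tamoxifen, as did Reg3b (0.29) and Reg3g (1.41) against mutant NaCl, and 1385 genes passed against control tamoxifen in place of 4915; fewer arrays entered. With 1 array left out, differences from control tamoxifen were 0.32 to 0.45 for Reg3b, 1.46 to 2.00 for Reg3g and 0.33 to 0.56 for Reg4, and 2517 to 4685 genes passed, the fewest without mutant tamoxifen replicate 3 and 3031 without control tamoxifen replicate 2. Against mutant NaCl they were 0.29 to 0.44, 1.36 to 2.00 and 0.75 to 0.95, and 3150 to 4924 genes passed. Differences near 0 changed sign. Reg1 was -0.06 to 0.0023 and Reg3a -0.08 to 0.0037 against control tamoxifen with 1 array left out, with the positive values without control tamoxifen replicate 2. Between mutant NaCl and control tamoxifen Reg3a was 0.002 without a sex term, 0.0022 after quantile normalisation again and -0.03 to 0.04 with 1 array left out, Reg1 -0.02 in female arrays, and Reg3g -0.02 to 0.32 with 1 array left out. There 3 genes passed with only the arrays compared, and 0 to 3 with 1 array left out, 2 without mutant tamoxifen replicate 4 and 3 without control tamoxifen replicate 2. The causes were not tested. Leaving out the lowest 25% or 50% of genes removed Reg1, Reg3a, Reg3b and Reg3g, so these settings gave them no value. No paired analysis was possible because the labels give the groups no shared replicate numbers.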
